A study of Cervus nippon with 40 samples.

Results

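The names bta-miR-2286 to bta-miR-2477 are a block of miRNA numbers with the cattle prefix bta, to which small RNA reads of Sika Deer (Cervus nippon) were matched. All names with a number of this block, with any letter or arm suffix, were taken from the lists of 40 small RNA libraries, which gave 19 of the 336 names with the bta prefix that were listed at least once. The libraries came from male Shuangyang deer, and covered 10 organs (brain, spleen, liver, heart, skeletal muscle, antler, lung, testes, kidney and adrenal) at 4 stages, with deer of 1 year (juvenile), 3 years (adolescence), 5 years (adult) and 10 years (aged). The RNA of 3 deer was pooled for each library, and the 10 organs of a stage came from the same deer, 12 in all. No deer carried a treatment or an altered gene. There was 1 library per organ and stage, so the 4 libraries of an organ differ in age as well as in animals, and the SD and p-values below measure the spread between stages and not that between animals of 1 age.

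miRNAs are short RNAs that are cut from hairpin precursors by the enzymes Drosha and Dicer, and they guide Argonaute proteins to messenger RNAs through the seed near their 5′ end, which lowers the output of those messages. Many low-numbered miRNAs are shared across vertebrates. Most numbers of the block described here entered the miRNA catalogue with small RNA sequencing of cattle tissues, whereas miR-2355 is also known in human. The files pair the names with values alone, so no mature sequence is printed.

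Values are RPM, the reads of a miRNA per 1000000 miRNA reads of its library, and the reads behind each value were recovered from the size of 1 read. The libraries held 41866 to 7759033 miRNA reads, with a median of 744715, so that 1 read stood for 0.129 RPM in juvenile muscle and 23.9 RPM in aged testes. A single miRNA, miR-1, took 91.1% to 92.9% of the reads in muscle and 15.1% to 81.5% in heart, which lowers the RPM of all other miRNAs there. Organ labels were met by miR-206, listed in muscle only (0.923 to 1.93 RPM), and miR-208a, listed in heart only (1.10 to 6.20 RPM). As 1 read stood for up to 23.9 RPM elsewhere, their absence from single other libraries is not shown. Labels were also met by miR-124a (at least 2446 RPM in brain and at most 358 RPM elsewhere). The same held for miR-192 (at least 63924 RPM in kidney and liver, at most 12420 RPM elsewhere). It also held for miR-214 (at least 7088 RPM in antler, at most 6043 RPM elsewhere). miR-202, known from testes, was listed in the juvenile (13.1 RPM) and adolescence testes (14.9 RPM, from 1 read) and in the adolescence adrenal (1.17 RPM). It was unlisted in the adult and aged testes, where 1 read stood for 10.3 and 23.9 RPM, so these libraries cannot show whether it was absent. miR-9 and miR-122, also set as checks, were listed under the bta prefix in no library. miR-499, miR-194 and miR-449a had 5, 6 and 7 reads in all. Some markers did not follow their organ. miR-133a, set for muscle, was higher in each of the 4 heart libraries than in all others. miR-142-5p, set for spleen, ran from 6.62 to 2849 RPM there, against 98.1 to 144 RPM in antler and up to 565 RPM in testes. Of the 40 libraries, 37 were most like another library of their own organ. The adolescence lung and the aged spleen were most like each other, and the juvenile testes were most like the juvenile adrenal. The aged spleen held 31.1 RPM of miR-150, a miRNA of lymphocytes, against 256 to 325 RPM in the other spleens, and 2849 RPM of miR-142-5p, a miRNA of blood cells, against 6.62 to 104 RPM. The adolescence brain held 2446 RPM of miR-124a, a miRNA of neurons, against 31967 to 57640 RPM in the other brains. In bulk tissue, fewer cells of a type and less RNA per cell cannot be told apart.

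The 19 names were scarce. Together they held 1223 reads, or 23.3 per 1000000 miRNA reads of the series. With at least 10 reads in sum there were 11 names (57.9% of 19), against 213 of all 336 bta names (63.4%). miR-2355-3p with 461 reads, miR-2310 with 205 and miR-2366 with 158 made up 67.4% of the reads. The other 8 of these 11 names had 81 reads (miR-2403), 73 (miR-2447), 72 (miR-2424), 59 (miR-2404), 38 (miR-2332), 27 (miR-2312), 16 (miR-2440) and 15 (miR-2469). A library listed 1 to 10 of the 19 names, with a median of 6, and none of the names was listed in all 40 libraries. Of the 245 listed values, 40.4% rested on 1 read.

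**Figure D1:**
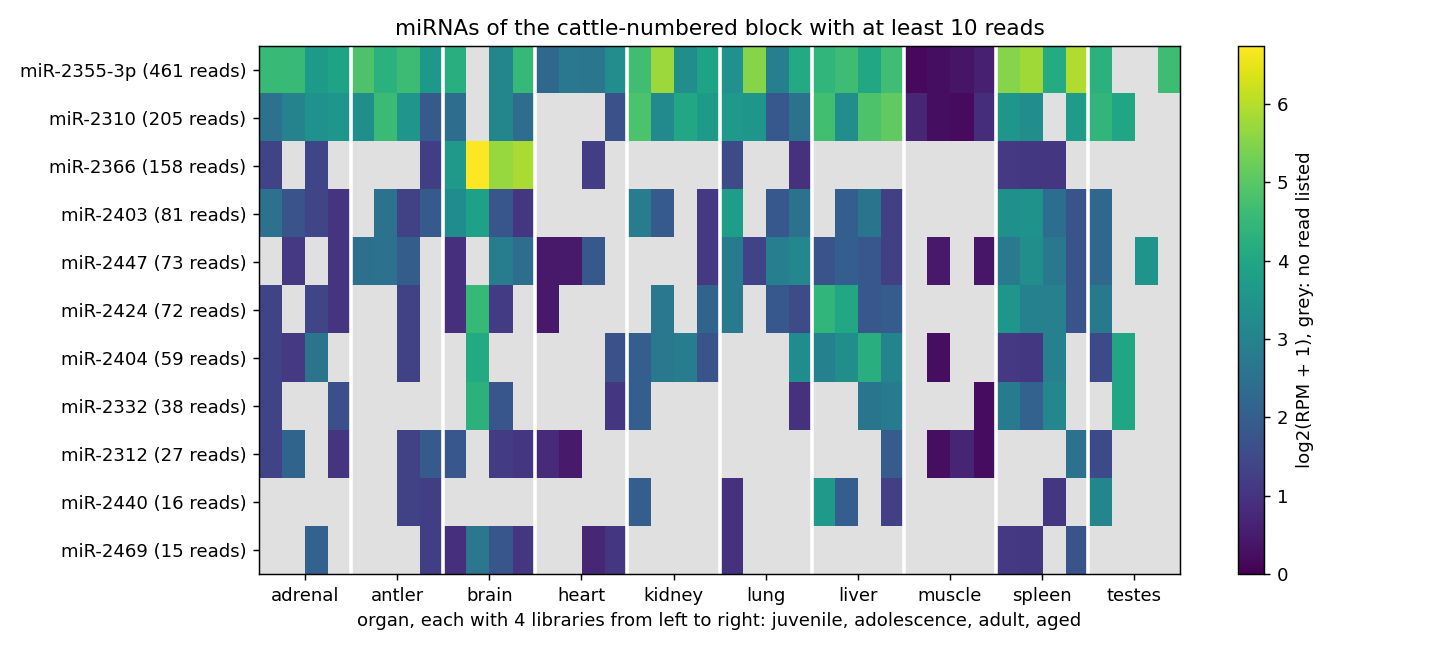
Level of the 11 names with at least 10 reads in sum, as log2(RPM + 1), in 40 libraries (columns, 4 stages within each of 10 organs), with grey where no read was listed. miR-2355-3p was listed in 37 libraries and miR-2310 in 33, whereas miR-2366 was high in the 4 brain libraries and listed in 9 of the 36 others.

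The remaining 8 names had 18 reads in all. miR-2411-3p had 5 reads, 1 each in adrenal, muscle and spleen and 2 in heart. miR-2340 had 3 reads, all in kidney, with 1 each at adolescence, adult and aged. miR-2334 had 2 reads in muscle and 1 in brain, and miR-2459 had 2 in testes and 1 in spleen. Single reads were listed for miR-2315 (testes), miR-2330-5p (adrenal), miR-2387 (spleen) and miR-2428 (liver). Thus 5 of the 19 names were listed in 1 organ only, 4 of them through 1 read.

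For 2 of the names a second name had the same read counts, library by library. miR-2310 and miR-1814c had equal reads in 32 of the 33 libraries that listed either, with 205 and 204 reads in sum. miR-2312 and miR-2284j, a member of the large ruminant miR-2284 family, had equal reads in all 16 libraries, with 27 reads each. Among all 309 listed names with at least 10 reads there were 8 such pairs, with equal reads in at least 90% of their libraries. Whether the same reads were counted under both names was not tested, and the names of each pair cannot be told apart by these values.

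The block was compared with other names by their reads, as a description. The median was 16 reads per name for the 19 names and 15 for 68 names of the ruminant families miR-2284 and miR-2285. It was 888 for 9 later cattle numbers (miR-2478, miR-2483-3p, miR-2484 and names from miR-2887 to miR-2957). For 196 low-numbered names (let-7 and numbers under 1000) it was 66.5. The 888 reads are those of miR-2957. This name had the reads of miR-152, a low-numbered name, in all 39 libraries that listed either, so these names cannot be told apart. At least 1000 reads were reached by 0 of 19, 6 of 68, 4 of 9 and 65 of 196 names. The highest name of the block had 461 reads, whereas the highest of the ruminant families had 189296. The shares with at least 10 reads were closer, at 57.9%, 54.4%, 77.8% and 65.8%.

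**Figure D2:**
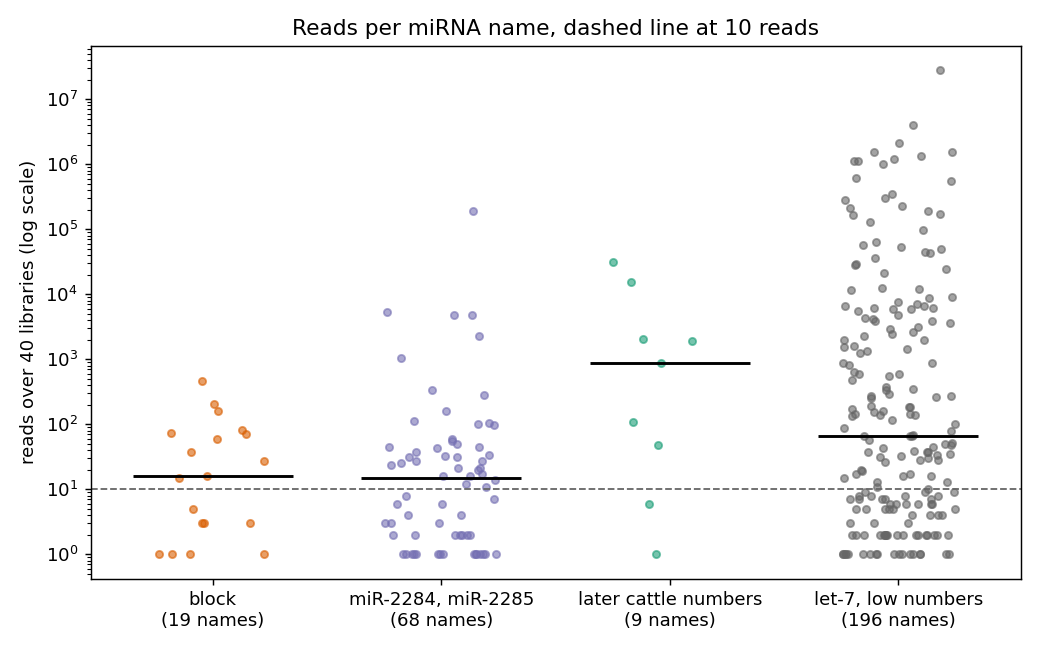
Reads of each miRNA name over the 40 libraries on a log scale, for the 19 names of the block and for 3 other lists, with points for names, bars for medians and a dashed line at 10 reads. All 19 names lie at or below 461 reads, whereas 65 of the 196 low-numbered names reach 1000.

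An organ was taken as set apart when each of its 4 libraries exceeded all 36 others, which is a description with no test. By this measure miR-2366 in brain was the only case among the 11 names, or 9.09%, against 18.3% of the 213 bta names with at least 10 reads. In the ruminant families miR-2284 and miR-2285 there were 12 cases in 37 names, 10 of them in antler and 2 in liver, and none in brain. Those 10 names were listed in the 4 antler libraries and in no other, and they are part of the 18.3%. Antler lists also carried the name miR-148c in place of miR-2957. Whether they were made with another set of names was not tested. Among all 213 names 3 had the brain apart, namely miR-124a, miR-128 and miR-2366.

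miR-2366 had 13 reads in juvenile, 39 in adolescence, 41 in adult and 54 in aged brain. These stood for 11.2, 106, 51.3 and 58.6 RPM, a mean of 56.7 ± 38.8 RPM (SD, n = 4). The 4 brain libraries held 147 of its 158 reads, or 93.0%, and were the only libraries with more than 2 reads. The juvenile brain was the lowest of the 4 and the adolescence brain the highest, 9.44-fold apart. Over the 4 brain libraries pooled, the level was 45.2 RPM, with an exact 95% Poisson interval of 38.2 to 53.2 RPM that covers counting error only.

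Outside brain miR-2366 had 11 reads. There were 3 reads in lung (2 juvenile and 1 aged), 3 in spleen (1 each at juvenile, adolescence and adult), 2 in adrenal (juvenile and adult), 2 in adult heart and 1 in aged antler. The highest value outside brain was 1.91 RPM in juvenile lung, and the lowest brain library was 5.86-fold above it. Kidney, liver, muscle and testes listed no read at any stage. Set against 3 reads over the pooled depth of the organ, which is the limit that a count of 0 allows, the pooled brain level was at least 28.4-fold higher than in kidney, at least 28.0-fold higher than in liver, at least 388-fold higher than in muscle and at least 11.2-fold higher than in testes. The limit is wide in testes because its 4 libraries held 741783 reads together. The bound in muscle counts miR-1 reads, which made up 91.1% to 92.9% there. It would be lower with miR-1 left out of the total. The order of the organs below brain (spleen, adrenal, lung, antler and heart, from 0.851 to 0.329 RPM in the mean) rests on 1 to 3 reads each, and their libraries overlap.

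**Figure D3:**
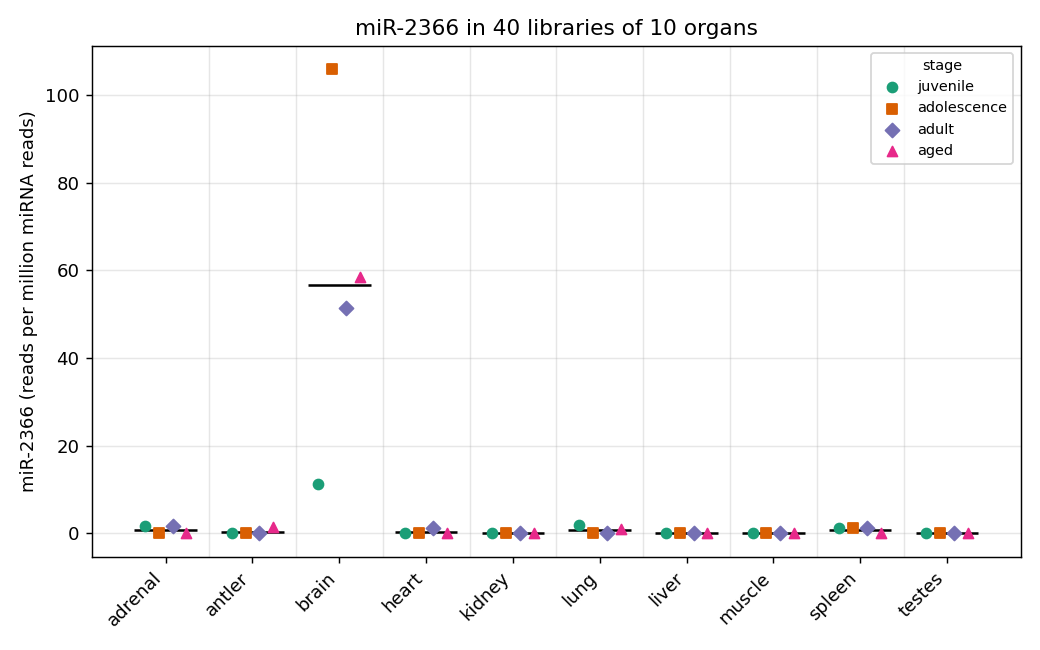
RPM of miR-2366 (vertical axis, linear) in the 4 stages of each of 10 organs, with symbols for stages and bars for the mean of 4 libraries. The brain libraries lie between 11.2 and 106 RPM and all others at or below 1.91 RPM.

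The 3 bta names outside the block whose log2(RPM + 1) followed miR-2366 most closely over the 40 libraries were miR-128 (Pearson r = 0.944), miR-760-3p (r = 0.793) and miR-124a (r = 0.778). These values are a description, since the libraries share depth and the 4 brain libraries carry most of the pattern. miR-128, known from neurons, had 27 of its 30 reads in brain, at 4.31 RPM in juvenile, 10.9 in adolescence, 6.26 in adult and 14.1 in aged. Like miR-2366, it was lowest in the juvenile brain by RPM. As 1 read stood for 0.862 RPM in juvenile, 2.71 in adolescence and 1.25 in adult brain, this order rests on few reads. miR-760-3p stood at 19 RPM in juvenile, 307 in adolescence, 70.1 in adult and 69.4 in aged brain, the stage order of miR-2366 apart from adult and aged. miR-124a had another order, 57640 RPM in juvenile, 2446 in adolescence, 31967 in adult and 37110 in aged brain, so the library with the most miR-2366 had the least miR-124a.

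Other names known from brain gave the background for a brain pattern at few reads. Of 7 such names listed, 5 had at least 10 reads and 2 of these, miR-124a and miR-128, were highest in all 4 brain libraries. miR-212 had 30 of its 33 reads in brain but none at adolescence, and miR-383 had 17 of 20 but none at juvenile and adult. miR-153 had 9 of 10 reads in brain, with none at adolescence and adult. At 9 and 6 reads, miR-219-3p and miR-488 were listed in brain only, each missing 1 stage. miR-2366 was therefore listed with more reads than 6 of these 7 names and at all 4 stages.

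miR-2355-3p, the arm of a precursor that human also carries, was the most read and most widely listed name of the block. In spleen it had 44.7 RPM at juvenile, 53.9 at adolescence, 16.6 at adult and 59.9 at aged, from 38, 48, 15 and 25 reads. The mean of 43.8 ± 19.2 RPM (SD, n = 4) was the highest of the 10 organs. Kidney followed with 24.8 ± 19.1, liver with 21.1 ± 4.22, antler with 20.4 ± 7.25, lung with 19.2 ± 17.4, adrenal with 17.5 ± 5.54, brain with 11.8 ± 9.92, testes with 10.6 ± 12.5 and heart with 5.86 ± 2.11 RPM. Each of these overlapped its neighbours in that order. Muscle was lowest, with 0.129, 0.183, 0.308 and 0.498 RPM in the 4 stages, from 1, 1, 2 and 3 reads, below all heart values (3.87 to 8.84 RPM). With miR-1 left out of the total, muscle still had the lowest mean at 3.43 RPM, and heart rose to 14.2 RPM. With TMM-scaled values testes were lowest at 4.005 RPM and muscle had 6.28 RPM.

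Single libraries weighed on these means. The adolescence lung, the library most like the aged spleen, had 44.6 RPM of miR-2355-3p against 6.52 to 16.3 RPM in the other lungs, and the aged spleen had the highest spleen value of 59.9 RPM. The adolescence brain had no read of miR-2355-3p in 368429, where the other brains had 7.51 to 21.7 RPM. In testes the name was listed at juvenile (10 reads) and aged (1 read) and not at adolescence and adult, in libraries of 67231 and 97018 reads.

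miR-2310, with the read counts of miR-1814c, was highest in liver by RPM. The liver libraries had 25.1, 9.09, 28.2 and 32.9 RPM from juvenile to aged, from 11, 3, 11 and 23 reads, with a mean of 23.8 ± 10.3 RPM (SD, n = 4). Kidney had 15.6 ± 8.33, antler 11.45 ± 8.61, testes 8.85 ± 10.48, adrenal 8.13 ± 2.74, spleen 7.89 ± 5.40, lung 7.41 ± 4.38 and brain 4.04 ± 3.08 RPM. Heart had no read at juvenile, adolescence and adult and 2 reads (2.21 RPM) at aged, in libraries of 905158 to 2582105 reads. Muscle had 5, 1, 1 and 5 reads, or 0.453 ± 0.337 RPM. Neighbours in this order overlapped in every case. The low RPM of muscle moved with miR-1, since muscle had 5.43 RPM with miR-1 left out of the total. Heart, at 0.552 RPM before, was then the lowest at 0.651 RPM. With TMM-scaled values liver had 10.7, antler 10.1, muscle 8.38 and heart 0.545 RPM, so the lead of liver depended on the scaling.

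**Figure D4:**
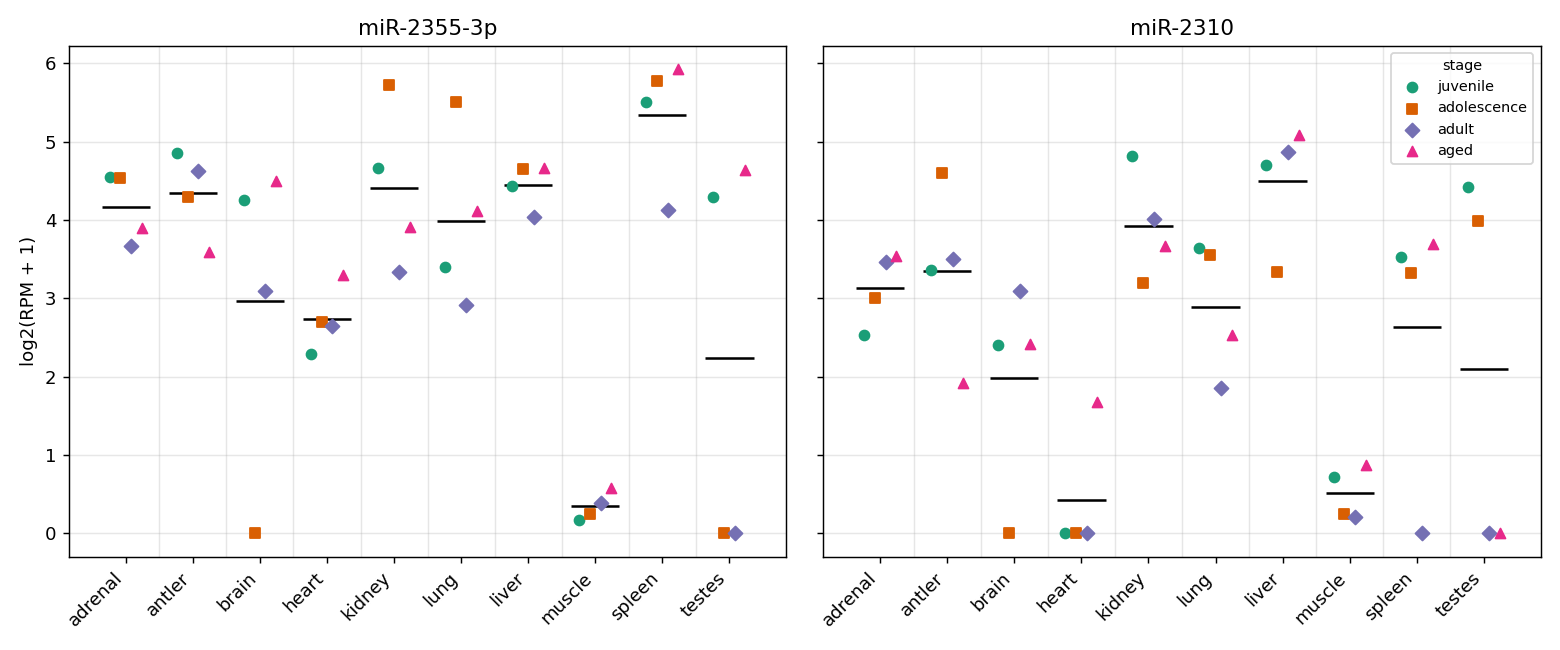
Level of miR-2355-3p (left) and miR-2310 (right) as log2(RPM + 1) in 4 stages of 10 organs, with bars for the mean on this scale. miR-2355-3p was highest on average in spleen and lowest in muscle, and miR-2310 was highest on average in liver by RPM and unlisted in 3 of 4 heart libraries.

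Differences between organs were fitted in limma, on the log2(RPM + 1) scale and with organ and stage as terms. TMM factors, which assume that the bulk of miRNAs do not differ, scaled the libraries. Of the block, miR-2310, miR-2355-3p and miR-2366 had the required 10 reads in 4 libraries, the last through brain alone, so its organ contrasts are not given. In 20 contrasts of an organ with the mean of the other 9, the 2 remaining names gave 1 call at the limits used, an adjusted p under 0.01 and a log2 fold change beyond 1 in size. miR-2310 was lower in heart, with a log2 fold change of -2.17 (SE 0.501, adjusted p = 6.7e-04 in limma). Among all 126 names tested, 15.1% were called lower in heart. miR-2310 in liver had a log2 fold change of 1.20 (SE 0.501, adjusted p = 0.0488) and miR-2355-3p in spleen of 1.58 (SE 0.602, adjusted p = 0.0815), neither of which passed. miR-2355-3p in testes, at -1.99 (SE 0.602, adjusted p = 0.0109 in limma), missed the limit. It passed without the juvenile testes (-2.48, adjusted p = 0.0066 in limma). The testes libraries left in that fit held 0, 0 and 1 reads of it. In each of them 1 read stood for 10.3 RPM or more, so they cannot show a low level. In the full fit 14.3% of names were called lower in testes. Without the juvenile libraries miR-2310 in heart no longer passed (-1.61, adjusted p = 0.067), nor did it without the adult libraries (-1.99, adjusted p = 0.0215).

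In the F test over the 10 organs, miR-2310 passed (adjusted p = 0.00225 in limma) and miR-2355-3p did not (adjusted p = 0.0376), where 76.2% of the 126 names passed. miR-2310 no longer passed with edgeR, with no minimum beyond 10 reads in sum, without muscle or without any 1 of the 4 stages. In the F test over stages 0 of these 2 names passed, against 4.76% of all names. The adjusted p in limma was 0.361 for miR-2310 and 0.424 for miR-2355-3p, neither had an unadjusted p below 0.05, and edgeR and DESeq2 on the recovered reads called 0 as well. Stage p-values treat organs as independent although they share deer, which makes the p-values too small where a deer differs in several organs.

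Names with fewer reads were compared by an exact permutation test, two-sided, of the mean log2(RPM + 1) of 1 organ minus that of the other 9, over the 10000 choices of 1 library per stage. The smallest p it can give is 0.0001. The 10 names other than miR-2366 gave 5 calls in 100 tests at an adjusted p below 0.05, or 5%, against 8.97% of the 2130 tests over 213 bta names. The calls fell on 5 of 10 names, where 71.8% of all names were called in some organ. Among them, miR-2440 in liver and miR-2469 in brain reached 10 reads in sum only through the organ called. These values used RPM without TMM. In the limma fit, scaling to total reads in place of TMM moved the median log2 fold change of the 126 names by -3.52 in muscle, 1.17 in liver and -0.07 in brain.

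In liver 3 names were called higher by RPM, among them miR-2440, which entered the test only through its liver reads. miR-2404 had 6.85, 9.09, 17.9 and 7.15 RPM in liver from juvenile to aged, from 3, 3, 7 and 5 reads. All 4 liver libraries listed it, and its highest value elsewhere was 16.3 RPM in the adolescence brain. The difference was 2.41 on the log2 scale (exact permutation test, adjusted p = 0.0125), where 7.04% of names were called higher in liver. With TMM-scaled values it was 1.58 and did not pass (adjusted p = 0.0938). Nor did it pass in the same test without the juvenile (adjusted p = 0.08875), the adult (adjusted p = 0.105) or the aged libraries.

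miR-2424 had 20.54, 15.2, 2.56 and 2.86 RPM in liver, from 9, 5, 1 and 2 reads, high in the younger and low in the older pair of libraries. The difference was 2.03 (exact permutation test, adjusted p = 0.0433), and 1.35 with TMM-scaled values (adjusted p = 0.23). It passed under none of its 7 alternatives, where the adjusted p ran from 0.0625 to 0.244. In spleen it had 10.6, 6.74, 6.62 and 2.39 RPM, with a difference of 1.74 that did not pass (exact permutation test, adjusted p = 0.107). Liver held 17 and spleen 22 of its 72 reads.

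miR-2440 had 5 reads in juvenile, 1 in adolescence, 0 in adult and 1 in aged liver, so 7 of its 16 reads were in liver. The difference was 1.46 (exact permutation test, adjusted p = 0.031), and 1.03 with TMM-scaled values (adjusted p = 0.0833), which did not pass. The same test did not pass without the juvenile (adjusted p = 0.194), the adolescence (adjusted p = 0.208) or the aged libraries (adjusted p = 0.128). It passed without the adult libraries (adjusted p = 0.026). Outside liver miR-2440 had too few reads for the minimum of the test. It therefore entered only through liver, and the call is a description only. The juvenile testes, the library most like an adrenal, held 4 further reads at 7.47 RPM.

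In brain miR-2469 had 1, 2, 2 and 1 reads, or 0.862, 5.43, 2.5 and 1.08 RPM. It was listed at all 4 stages there and in 3 of 4 spleens, and the groups overlapped. The difference was 1.33 (exact permutation test, adjusted p = 0.0379), where 8.92% of names were called higher in brain. With TMM-scaled values it was 1.4 (adjusted p = 0.0199). It rests on 6 reads, and without the adolescence libraries the adjusted p was 0.251. Outside brain miR-2469 had fewer than 10 reads, so it entered the test only through brain, and the call is a description only. With a minimum of 1 read in sum it did not pass.

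In muscle miR-2355-3p was lower by RPM, with a difference of -3.50 (exact permutation test, adjusted p = 0.0114), where 35.7% of names were called lower. With TMM-scaled values the difference was -0.72 (adjusted p = 0.783).

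**Figure D5:**
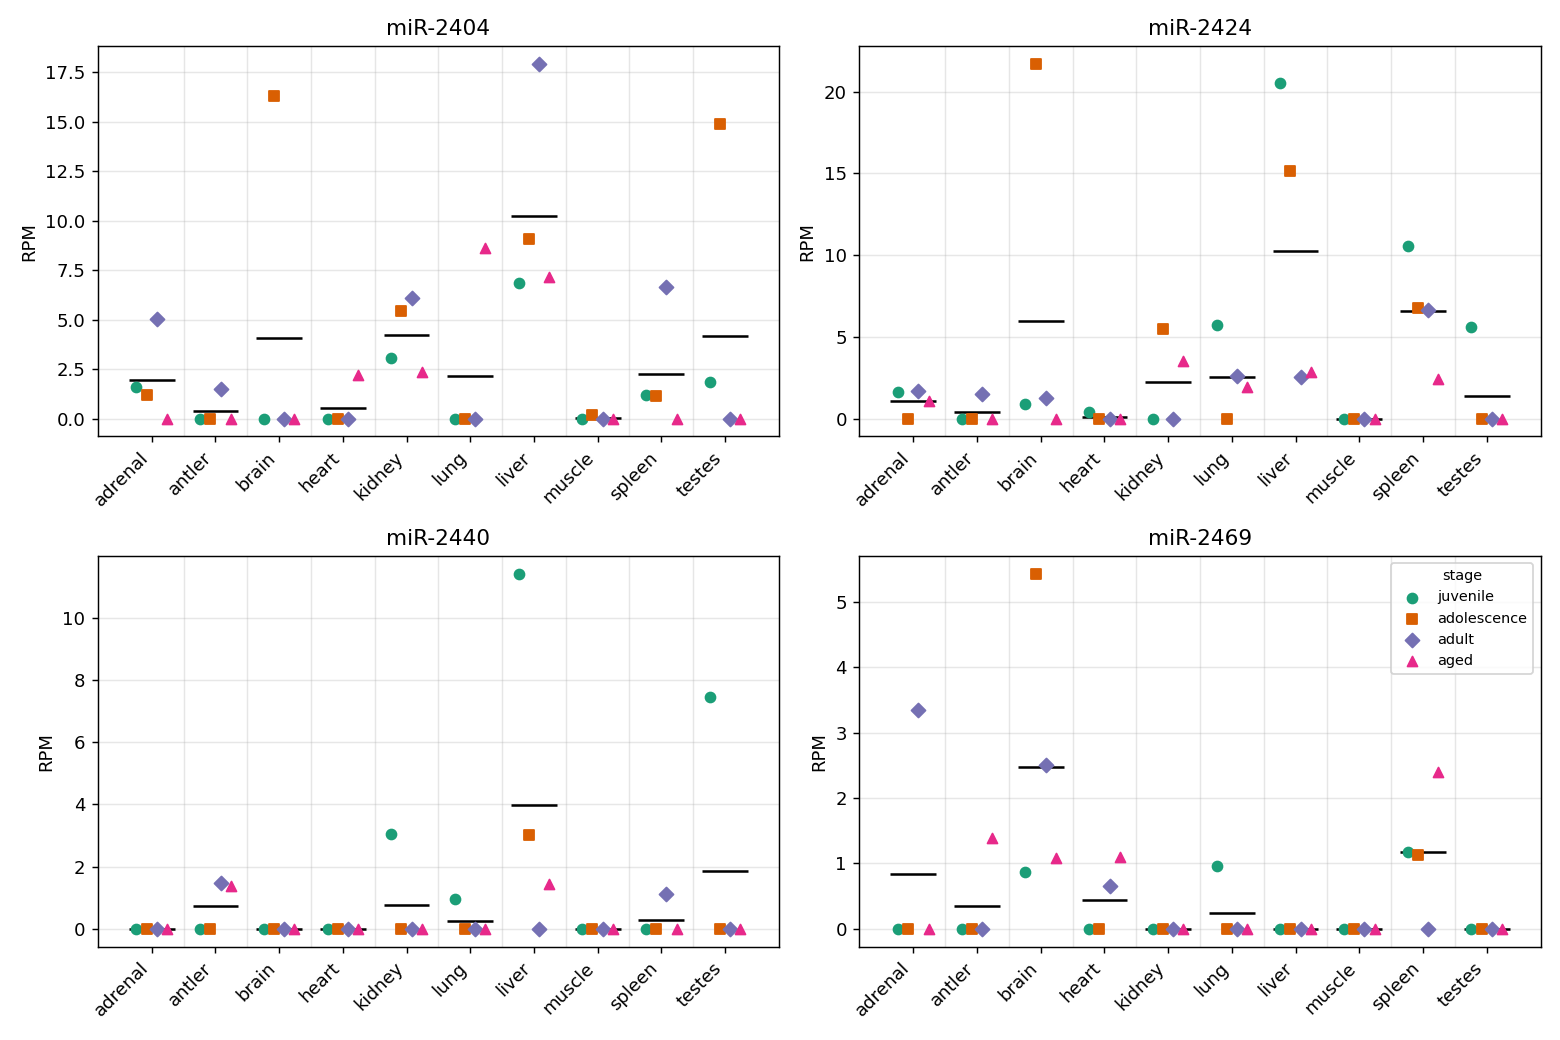
RPM of miR-2404, miR-2424, miR-2440 and miR-2469 in 4 stages of 10 organs, with symbols for stages and bars for means. The liver libraries of miR-2404 lie between 6.85 and 17.9 RPM, whereas its adolescence brain reaches 16.3 RPM, and the 4 brain libraries of miR-2469 rest on 1 or 2 reads each.

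miR-2310 passed this test in no organ by RPM, with adjusted p of 0.0557 in heart, 0.0743 in muscle and 0.0847 in liver (exact permutation test), so its limma call in heart was not met here. With TMM-scaled values heart passed, at -2.17 (exact permutation test, adjusted p = 0.0228). None of the remaining 4 names, described next, passed it. miR-2403 was highest in spleen (9.41, 10.1, 4.42 and 2.39 RPM, mean 6.58 ± 3.77) and brain (8.62, 13.6, 2.5 and 1.08 RPM, mean 6.45 ± 5.77), both higher in the younger stages. Heart and muscle listed no read of it, in 7567817 and 25734494 reads. Its sums over the organs were 38 reads at juvenile, 19 at adolescence, 12 at adult and 12 at aged.

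miR-2447 was listed in all 10 organs and was highest in spleen (5.88, 8.98, 5.52 and 2.39 RPM) and lung (5.73, 1.54, 6.52 and 7.68 RPM). Its sums over the organs were 17, 15, 23 and 18 reads at the 4 stages, with no stage below 15. In liver each library held exactly 1 read.

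miR-2332 had 15 of its 38 reads in spleen, at 5.88, 3.37, 7.73 and 0 RPM, with the aged spleen at 0. miR-2312, with the read counts of miR-2284j, had at most 4 reads in a library, and lung and kidney listed none.

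In the adolescence brain the block had an order of its own. That library held 8 reads of miR-2424, 7 of miR-2332 and 6 of miR-2404 in 368429, whereas the other 3 brains, with 798863 to 1159823 reads each, held 0 to 2 reads of these names. It held no read of miR-2310 and miR-2355-3p, of which the other brains had 4 to 6 and 6 to 21 reads. This is also the brain library with the least miR-124a, and the part of that difference in these values was not tested.

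As a whole, the block without miR-2366 held 80.5 ± 20.9 RPM (SD, n = 4) in spleen, 78.0 ± 8.53 in liver, 52.9 ± 21.9 in kidney, 44.6 ± 21.0 in brain, 43.3 ± 16.2 in testes, 42.4 ± 15.3 in lung, 39.98 ± 12.5 in antler, 35.7 ± 3.59 in adrenal, 9.25 ± 4.57 in heart and 1.36 ± 0.483 in muscle. With miR-2366 the brain sum was 101 ± 57.1 RPM. The 2 organs with the lowest sums are those in which miR-1 takes the most reads. Spleen listed 14 of the 19 names, adrenal 12, and brain and testes 11 each.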

How the data were processed

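The authors made small RNA libraries from pooled RNA of 3 deer, discarded adapters, short tags and other RNA classes, and assigned what was left to miRBase entries or to miRNAs predicted with miRDeep. The submitters' processing notes name CASAVA, bcl2fastq 1.8.4 and Bowtie. The deposited values are RPM, reads per 1000000 miRNA reads (the header says tpm), 1 list per library, with miRNAs without a read unlisted. All 7982 values lay within 0.01 of whole multiples of 1 read, which gave the reads. In adolescence and adult muscle and in aged testes few low values fix the size of 1 read, so their depth and reads are less certain. The lists were made for known miRNAs in miRBase, and how a read that matches several names was counted is not given in the sources used here. The antler name miR-148c was taken as miR-2957. No 2 libraries were identical.

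Depth was 41866 to 7759033 reads, and intervals and the limit of 3 reads cover counting error only. Libraries were grouped by labelled organ and stage, and ages come from the study's methods. Organs were fitted with limma 3.58.1 (R 4.3.3) on log2(RPM + 1), scaled by TMM factors from edgeR 4.0.16, with organ and stage as terms, for 126 bta names with 10 reads or more in 4 or more libraries, and p-values were adjusted by Benjamini-Hochberg over these names. Adding 1 understates changes of scarce names. Stage is a block because organs of a stage share deer, as the study's design states, and the mean correlation of residuals was 0.141 for 180 same-stage pairs and -0.0709 for 600 others. The exact permutation test covered 213 bta names in Python 3.11.15, adjusted over 2130 tests. The fit and the permutation test were tested on simulated data. Names with at least 10 reads in sum are described by organ, and the others in 1 passage. Alternatives were DESeq2 1.42.0, edgeR, other scalings, minimums and pseudocounts, and leaving out stages, organs or single libraries (the last chosen after seeing the data). The members and lists were chosen with earlier results of these data known.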

Additional observations from a re-analysis of the deposited data

Results flagged for a closer look

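Of 31 sets of 4 libraries of 1 organ with at least 10 reads of a name, 1 held a library far from the others by Dixon's test. For normal values chance alone gives this in about 1 in 20 sets, a rate that need not hold for such low counts. miR-2424 stood at 21.7 RPM (8 reads) in the adolescence brain, whereas the other brains lay between 0 and 1.25 RPM. The gap to the nearest library was 0.942 of the whole range. That library gave 8 of the 10 reads of the set, which met the minimum only through it, so the flag is a description only.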

How the results depend on the processing

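The 11 names with at least 10 reads became 19 at a minimum of 1 read and 3 at 100, and stayed within 9 to 12 under the other minimums and without any stage, antler, muscle or the doubted libraries. miR-2366 in brain remained the only name with 1 organ apart under every scaling. Leaving out a stage or a doubted library cannot undo such a pattern, and it added no other name. With each library thinned to 41866 reads the count was 0 in the median of 20 draws. The organ calls of the fit, 1 in the report, were 4 with scaling to total reads, 2 with DESeq2, 2 with no minimum beyond 10 reads in sum, 0 with a pseudocount of 10, 2 without the juvenile testes, 2 without the adolescence brain, 1 with edgeR and 0 to 1 without 1 stage. With no minimum beyond 10 reads in sum, the calls were miR-2403 (1.52) and miR-2469 (1.37) in brain. miR-2469 reached 10 reads only through brain. miR-2310 in muscle turned from 0.87 to -2.26 with scaling to total reads. The F test over organs, 1 in the report, gave 2 with scaling to total reads, 0 with edgeR, 2 with DESeq2, 2 with no minimum, 0 without muscle, 2 without the adolescence brain and 0 without each stage in turn. The stage test gave 0 under every alternative run. The permutation calls, 5 in the report, were 2 with TMM-scaled values (miR-2310 in heart and miR-2469 in brain), 6 with a pseudocount of 10 (gaining miR-2310 in liver and miR-2355-3p in spleen, losing miR-2424), 4 with at least 1 read in sum (gaining miR-2340 in kidney, losing miR-2424 and miR-2469) and 0 to 2 without 1 stage, where the smallest p is 0.001. miR-2340, read in kidney only, entered the permutation test only through kidney. The fit without the replicate block (no stage term) gave 1 organ call and 1 in the F test, and the stage term changed no other call. Apart from the smaller tests without a stage, the cause of these changes was not tested. Depth limits the values most in testes, where 1 read stood for 10.3 RPM or more in 3 of 4 libraries.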
